A study of Homo sapiens with 16 samples.

Results

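The matrix metalloproteinases (MMPs), the ADAMs and ADAMTS proteases and the tissue inhibitors of metalloproteinases (TIMPs) were followed in xenograft tumours grown from 4 PC-3 lines, PC-3 being an established cell line from a human prostate carcinoma. Members were all genes named alone by a probe set under a symbol of MMP, ADAM or ADAMTS with a number, or TIMP1 to TIMP4. There were 67 of them among 20276 genes measured: 22 MMP, 22 ADAM and 19 ADAMTS genes and all 4 TIMPs. They were read by 154 probe sets, and 43 members had several probe sets and 24 had 1. A probe set shared by MMP23A and MMP23B and another shared by ADAM21 and its pseudogene ADAM21P1 were left out. ADAM6 and ADAM1A, listed as ADAM1 in the deposited file, are pseudogenes in the reference annotation.

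RNA of 16 tumours was hybridised to Affymetrix expression arrays, 1 array per tumour and 4 tumours per line, after subcutaneous injection of cells into 5-week-old female nude mice of BALB/c background. The mock line had short telomeres, basal hTERT (the catalytic protein of telomerase) and no exogenous hTERT. LhTERTL had long telomeres and overexpressed exogenous hTERT. The line labelled mock/cre+, here mock_cre, had short telomeres and LhTERTL/cre+, here LhTERTL_cre, had long ones, and both had basal hTERT with the exogenous gene absent. All 4 lines were untreated PC-3 derivatives grown in the same kind of host. Since 1 line stood for each group, telomere length cannot be told apart from other differences between lines, and p-values measure the spread among tumours of a line. In LhTERTL minus mock the exogenous hTERT differed along with telomere length. What drove the hTERT gene is not given in the sources used here.

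Each value is a log2 signal from which the probe set's median over all 16 tumours has been subtracted, averaged per gene. Such values compare tumours and carry no level, so whether a member or a defining marker of a cell type was present at all could not be judged, and levels of different genes could not be compared. Of the 2 TERT probe sets, 1 ran from 2.82 to 3.41 in the 4 LhTERTL tumours and from -0.57 to 0.30 in the other 12, and the other was not raised in LhTERTL (-0.20 to -0.03). A ratio of 3' to 5' signal in control genes (the 3'/5' ratio, on the log2 scale), a sign of RNA quality, ran from 0.40 to 1.21 in mock_cre and from -0.29 to 0.30 in the other 3 lines. These ranges do not overlap, so a model that holds the ratio cannot fully tell it apart from the mock_cre line. Poly-A spike controls were high on 5 arrays, those of mock tumour 3, LhTERTL tumour 3, mock_cre tumours 1 and 4 and LhTERTL_cre tumour 1. A fit of these arrays alone holds 1 tumour each of mock, LhTERTL and LhTERTL_cre, so only sizes of differences are given for it. A host of mouse cells remains in such tumours, and human probes read mouse RNA only by cross-hybridisation. In bulk tumours, fewer cells of a type and less RNA per cell cannot be told apart.

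MMPs are zinc proteases that cleave collagens, proteoglycans and other proteins outside cells. Most are secreted as inactive precursors, and the membrane-type members sit on the cell surface. ADAMs are membrane proteins, many of which shed growth factors and receptors from the cell surface, and ADAMTS enzymes are secreted and act on proteoglycans and procollagens. TIMPs bind and block the active enzymes, so the balance of enzymes and inhibitors sets matrix turnover, which in prostate and other carcinomas has been studied for its part in invasion. Many inducible MMP promoters carry a site for AP-1, the dimer of FOS and JUN family proteins.

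Promoter sequences are shown for 3 MMP genes that lie in 1 cluster on chromosome 11 and match the AP-1 pattern. Between long and short telomeres MMP10 rose the most of the 3, MMP7 rose slightly, and MMP20 was not called. Each stretch holds 250 bases before and 50 after the gene's start, on the minus strand of GRCh38.p14, from RefSeq, with the AP-1 letters TGANTCA in capitals. MMP10 spans chr11:102780579-102780878, MMP7 chr11:102530698-102530997 and MMP20 chr11:102625283-102625582.
MMP10: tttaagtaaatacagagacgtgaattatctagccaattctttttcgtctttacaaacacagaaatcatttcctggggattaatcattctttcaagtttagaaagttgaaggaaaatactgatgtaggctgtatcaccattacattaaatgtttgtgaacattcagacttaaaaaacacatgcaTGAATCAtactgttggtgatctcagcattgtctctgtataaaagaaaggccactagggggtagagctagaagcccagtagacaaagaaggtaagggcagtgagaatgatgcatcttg
MMP7: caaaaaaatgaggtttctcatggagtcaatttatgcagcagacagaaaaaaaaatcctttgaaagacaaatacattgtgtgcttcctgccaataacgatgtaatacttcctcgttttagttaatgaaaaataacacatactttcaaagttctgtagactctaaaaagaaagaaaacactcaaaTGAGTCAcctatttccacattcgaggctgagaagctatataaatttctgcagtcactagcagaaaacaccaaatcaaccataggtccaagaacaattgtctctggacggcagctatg
MMP20: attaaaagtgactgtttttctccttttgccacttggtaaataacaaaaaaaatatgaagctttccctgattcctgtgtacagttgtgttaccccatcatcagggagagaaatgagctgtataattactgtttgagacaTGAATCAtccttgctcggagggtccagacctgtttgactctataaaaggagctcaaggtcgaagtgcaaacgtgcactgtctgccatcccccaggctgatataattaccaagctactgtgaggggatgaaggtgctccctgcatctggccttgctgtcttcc
The letters were TGAATCA in MMP10 and MMP20 and TGAGTCA in MMP7. They began at position -67 in both MMP10 and MMP7 and at -112 in MMP20, counted from the gene's start. Promoters of 38 of the 67 members were in the reference table, and 4 of them (10.5%) held TGANTCA on either strand: MMP10, MMP7, MMP20 and ADAMTS12. MMP1, MMP3, MMP9, MMP13 and MMP16 were not among the 38, so their promoters were not searched. Among all 27305 promoters of the same length, 2120 (7.76%) held it. A match is a description of the letters and shows no binding.

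Between tumours with long and short telomeres, averaged over the 2 pairs of lines, 20 of the 67 members passed limma's moderated test at an adjusted p under 0.05 over all genes (such members are termed called). This was 29.9% of the members, against 32.6% of all genes, so the family as a whole was called at about the background rate. Of the 20, 14 rose and 6 fell, and the median difference of the 67 was 0.02 log2 units, as it was over all genes. The calls were uneven within the family. Of the 22 MMPs, 9 rose (background for rises 18.5%) and 1 fell (background for falls 14.1%), while 3 ADAMs rose and 3 fell, 1 ADAMTS gene rose and 2 fell, and 1 TIMP rose. In all, 10 members (14.9%) differed by 0.5 log2 units or more, against 6.56% of all genes, and all 10 were called: MMP1, MMP10, MMP3, MMP9, MMP16, ADAM12 and ADAMTS1 were higher with long telomeres and MMP13, ADAM1A and ADAMTS3 lower. The remaining 57 members differed by less than 0.5 log2 units. With the mean of each line as the unit, 2 lines against 2, limma called 0 members, 8 had an unadjusted p under 0.05, and the smallest adjusted p was 0.156.

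Collagenases open the fibrillar collagens to further digestion. MMP1, interstitial collagenase, showed the largest difference of the family. Its centred log2 signal was -0.52, -0.05, -0.54 and -1.23 in the mock tumours and 1.70, 1.68, 1.47 and 1.49 in LhTERTL. It was -1.13, -1.16, -0.63 and -0.96 in mock_cre and 0.68, 0.05, 0.87 and 1.65 in LhTERTL_cre. All 8 tumours with long telomeres therefore lay above all 8 with short ones, and the LhTERTL tumours were tightly grouped while those of LhTERTL_cre were spread. MMP1 was 3.93-fold higher with long telomeres (log2 difference 1.98 ± 0.18 SE, limma adjusted p = 4.23e-07), 4.51-fold in LhTERTL against mock (adjusted p = 1.91e-05) and 3.43-fold in LhTERTL_cre against mock_cre (adjusted p = 6.54e-05). The difference between those pairs, -0.39 ± 0.37, did not pass (adjusted p = 0.599). Within the 11 arrays of low spike signal the long minus short difference of MMP1 was 1.99, and within the 5 of high spike signal it was 1.86.

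MMP13, collagenase 3, moved the other way. Its values were 1.10, 0.74, 1.26 and 1.503 in mock, 0.20, 0.94, 0.94 and 0.05 in LhTERTL, -0.05, -0.92, -0.38 and -0.85 in mock_cre and -1.28, -2.54, -1.34 and -1.23 in LhTERTL_cre. The 4 LhTERTL_cre tumours lay below the other 12, with a mean of -1.60 against 0.38, a pattern that 1.07% of all genes showed for that line in either direction. The largest contrasts of MMP13 were between lines of like telomere length: it was 4.37-fold lower in LhTERTL_cre than in LhTERTL (-2.13 ± 0.28, limma adjusted p = 4.25e-04) and 3.25-fold lower in mock_cre than in mock (-1.70 ± 0.28, adjusted p = 4.57e-04). Both lines labelled cre+ thus had less MMP13 signal than their partners without it. The fall with long telomeres was smaller, -0.83 ± 0.20 (adjusted p = 0.00347), with -1.05 ± 0.28 in LhTERTL_cre against mock_cre (adjusted p = 0.00931) and -0.62 ± 0.28 in LhTERTL against mock (adjusted p = 0.144). With the 3'/5' ratio in the model, MMP13 was no longer called in long minus short (-0.71, adjusted p = 0.0839) or in LhTERTL_cre against mock_cre (-0.85, adjusted p = 0.221), and without the mock_cre arrays the first was -1.68. In LhTERTL_cre minus mock_cre it was also lost within the low-spike arrays (-1.05, adjusted p = 0.0789). The long minus short difference of MMP13 was -0.58 within the high-spike arrays. MMP8, neutrophil collagenase, was not called (-0.02, 95% interval -0.13 to 0.09).

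**Figure D1:**
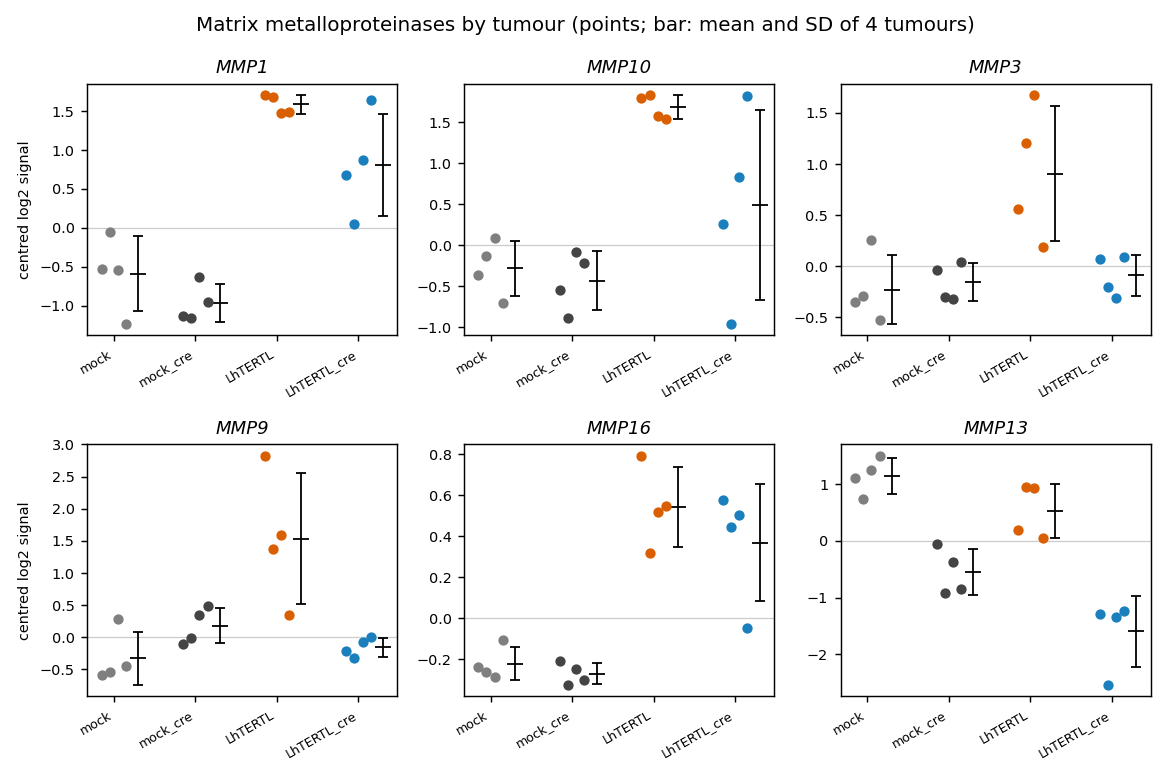
Centred log2 signal of 6 MMP genes in each tumour, by line (points), with the mean and SD of the 4 tumours (bar). MMP1 and MMP16 are higher in all 8 tumours of the lines with long telomeres, MMP3 and MMP9 have their highest mean in LhTERTL, and MMP13 is lowest in LhTERTL_cre; each panel has its own scale.

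Stromelysins digest proteoglycans and fibronectin and activate other MMPs. MMP10, stromelysin 2, gave -0.36, -0.13, 0.08 and -0.70 in mock and 1.79, 1.82, 1.58 and 1.54 in LhTERTL. In mock_cre it gave -0.54, -0.88, -0.08 and -0.22, and in LhTERTL_cre 0.26, -0.96, 0.83 and 1.82. LhTERTL tumours were uniformly high, whereas LhTERTL_cre ran from the lowest value of all to nearly the highest. The rise was 3.90-fold in LhTERTL against mock (1.96 ± 0.38, limma adjusted p = 0.00128) and 0.92 in LhTERTL_cre against mock_cre, which did not pass (95% interval 0.12 to 1.71, adjusted p = 0.0820). The difference between the pairs was -1.04 ± 0.53 (adjusted p = 0.258), and the average over both was 1.44 ± 0.27 (adjusted p = 4.22e-04).

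MMP3, stromelysin 1, gave -0.35, -0.29, 0.25 and -0.53 in mock and 0.56, 1.20, 1.68 and 0.19 in LhTERTL. It gave -0.04, -0.30, -0.32 and 0.04 in mock_cre and 0.07, -0.20, -0.32 and 0.09 in LhTERTL_cre. Again 3 of the 4 LhTERTL tumours were above all others, and the lowest fell within the range of mock. MMP3 rose in LhTERTL against mock (1.14 ± 0.24, limma adjusted p = 0.00252) and fell in LhTERTL_cre against LhTERTL (-0.998 ± 0.24, adjusted p = 0.0284). In LhTERTL_cre against mock_cre it was 0.07 (95% interval -0.44 to 0.57), and the difference between the pairs just missed the threshold (-1.07 ± 0.34, adjusted p = 0.0506). The fall in LhTERTL_cre against LhTERTL was lost without LhTERTL tumour 2 or 3 or LhTERTL_cre tumour 2 or 3 (-0.96 to -0.74, adjusted p 0.0703 to 0.106) and within the low-spike arrays (-0.79, adjusted p = 0.0688). With only the arrays of those lines fitted, the fall was not called either (-0.998, adjusted p = 0.107). The average of the pairs, 0.60 ± 0.17 (adjusted p = 0.0102), was lost without the mock_cre arrays (0.64, adjusted p = 0.0606). MMP11, stromelysin 3, was not called (0.02, 95% interval -0.10 to 0.14).

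Gelatinases cleave denatured collagens and basement membrane collagen. MMP9, gelatinase B, gave -0.59, -0.55, 0.28 and -0.45 in mock and 2.82, 1.37, 1.59 and 0.35 in LhTERTL. It gave -0.10, -0.00, 0.35 and 0.48 in mock_cre and -0.21, -0.33, -0.07 and 0.00 in LhTERTL_cre. In LhTERTL, 3 of 4 tumours were above all others, and the last overlapped mock_cre. MMP9 was 3.62-fold higher in LhTERTL than in mock (1.86 ± 0.34, limma adjusted p = 8.63e-04) and 3.21-fold lower in LhTERTL_cre than in LhTERTL (-1.68 ± 0.34, adjusted p = 0.0114). In LhTERTL_cre against mock_cre it was -0.34 (95% interval -1.05 to 0.38, adjusted p = 0.539). The difference between the pairs passed the test at -2.19 ± 0.48 (adjusted p = 0.00699), but not with the 3'/5' ratio in the model (-1.92, adjusted p = 0.0709). The average over the pairs, 0.76 ± 0.24 (adjusted p = 0.0209), therefore joins a rise in 1 pair with no call in the other. This average was not called within the low-spike arrays (0.87, adjusted p = 0.0767), and it was 0.45 within the high-spike arrays. The fall against LhTERTL was not called within the low-spike arrays (-1.64, adjusted p = 0.0788). Nor was it called with only the arrays of LhTERTL and LhTERTL_cre fitted (-1.68, adjusted p = 0.0708). MMP2, gelatinase A, which is a partner of TIMP2, was not called (-0.06, 95% interval -0.17 to 0.06).

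Among the 6 membrane-type MMPs, 3 rose with long telomeres (background 18.5%) and 0 fell (background 14.1%). MMP16, which can activate the MMP2 precursor, gave -0.24, -0.26, -0.29 and -0.11 in mock, 0.79, 0.32, 0.52 and 0.55 in LhTERTL, -0.21, -0.32, -0.25 and -0.30 in mock_cre and 0.58, 0.44, 0.50 and -0.05 in LhTERTL_cre. The 8 tumours with long telomeres lay above the 8 with short ones, the nearest being LhTERTL_cre tumour 4. MMP16 rose by 0.70 ± 0.08 (limma adjusted p = 4.61e-06), with 0.77 in the pair with exogenous hTERT and 0.64 in the other, and each of its 5 probe sets was called. MMP24 (0.19 ± 0.05, adjusted p = 0.0056) and MMP17 (0.16 ± 0.06, adjusted p = 0.0382), the latter anchored by a lipid, rose less. By pair, MMP24 was called in LhTERTL against mock alone, and MMP17 in neither, so MMP16 was the only membrane-type member called in both. Of the 4 probe sets of MMP24, 2 were called. The probe sets of MMP14, the best studied membrane-type enzyme and an activator of the MMP2 precursor, disagreed: 3 rose (0.29, 0.37 and 0.37) and 1 fell (-0.33), all called, and the gene's mean of 0.18 did not pass (adjusted p = 0.117).

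Of the other MMPs, MMP7 (matrilysin) was 0.23 ± 0.06 higher with long telomeres (limma adjusted p = 0.00628), but it was lost without the mock_cre arrays (0.19, adjusted p = 0.104). Its rise in LhTERTL_cre against mock_cre (0.27) was lost without mock_cre tumour 2 or 3 or LhTERTL_cre tumour 1 or 3 (0.25 to 0.26, adjusted p 0.0536 to 0.0682). That call was also lost with quantile normalization (0.23, adjusted p = 0.0806) and within the low-spike arrays (0.30, adjusted p = 0.0563). The 4 tumours of MMP28 (epilysin) in LhTERTL, at 0.14, 0.69, 0.51 and 0.25, all lay above the other 12, whose highest was 0.05. MMP28 rose in LhTERTL against mock (0.48, adjusted p = 0.00275), and it fell in LhTERTL_cre against LhTERTL (-0.42, adjusted p = 0.0312), a call lost without tumour 2 or 3 of either line (-0.43 to -0.32, adjusted p 0.0682 to 0.115). With only the arrays of those lines fitted, the fall was not called (-0.42, adjusted p = 0.108). In LhTERTL_cre against mock_cre MMP28 was 0.12 (adjusted p = 0.445). In both called comparisons 2 of its 5 probe sets were called, and with the median of the probe sets neither call held (0.26, adjusted p = 0.0702, and -0.21, adjusted p = 0.314).

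The MMP genes MMP7, MMP20, MMP27, MMP8, MMP10, MMP1, MMP3, MMP12 and MMP13 follow each other in this order on chromosome 11, with no other protein-coding gene between them in the GRCh38.p14 annotation. Their signals did not move as 1 block. On the average over the pairs, the neighbours MMP10, MMP1 and MMP3 rose with long telomeres. MMP13 at the far end fell, MMP7 at the near end rose by a small amount, and MMP20, MMP27, MMP8 and MMP12 were not called. By pair, MMP1 was called in both, and MMP10 and MMP3 in LhTERTL minus mock alone. MMP13 and MMP7 were called in LhTERTL_cre minus mock_cre alone. MMP12, macrophage elastase, lies between MMP3 and MMP13 and differed by 0.01 (95% interval -0.12 to 0.15). MMP20 and MMP27, the latter little studied, differed by 0.04 (95% interval -0.12 to 0.20) and 0.08 (95% interval -0.07 to 0.23).

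**Figure D2:**
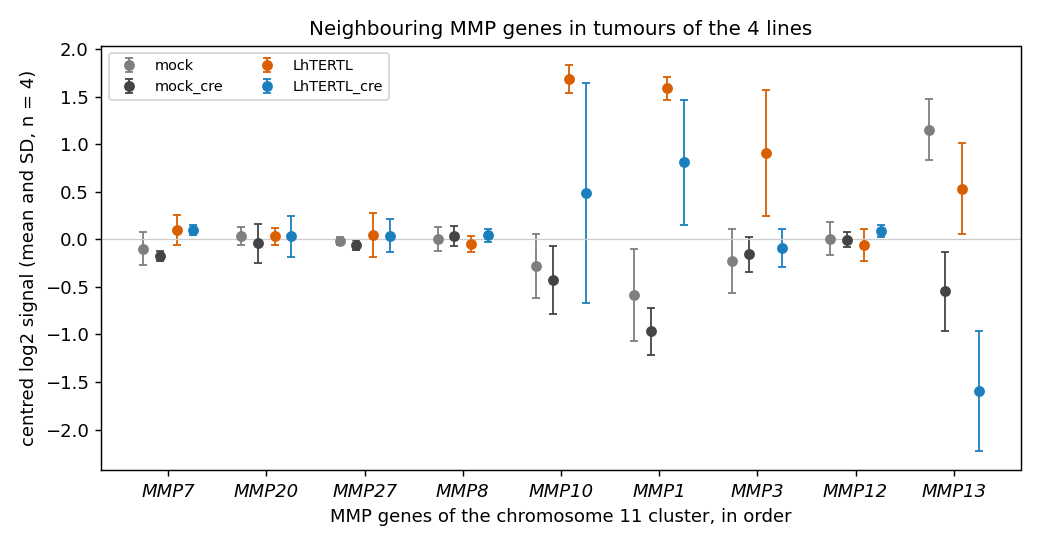
Mean centred log2 signal (points) and SD of 4 tumours (bars) of the 9 MMP genes of the chromosome 11 cluster, in gene order and not to distance, by line. MMP10, MMP1 and MMP3 have their highest mean in LhTERTL, MMP13 has its highest in mock and its lowest in LhTERTL_cre, and MMP20, MMP27, MMP8 and MMP12 stay near 0 in each line.

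The 2 pairs of lines gave different lists. In LhTERTL minus mock 15 members were called (22.4%, against 20.3% of all genes), 12 up (background 12.3%) and 3 down (background 7.99%). In LhTERTL_cre minus mock_cre 11 were called (16.4%, against 28.0% of all genes), 6 up (background 15.0%) and 5 down (background 13.0%). MMP1, MMP16, ADAM12 and ADAMTS1 rose and ADAM1A fell in both, which makes 5 members (7.46%), against 9.94% of all genes called with 1 sign in both pairs. The difference between the pairs was itself called for 4 members (5.97%, against 10.6% of all genes): MMP9, ADAMTS3 and TIMP3 with a negative difference (background 5.63%) and ADAM19 with a positive one (background 4.99%). That count was 2 without mock tumour 4 or mock_cre tumour 3 and 7 without LhTERTL_cre tumour 4.

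**Figure D3:**
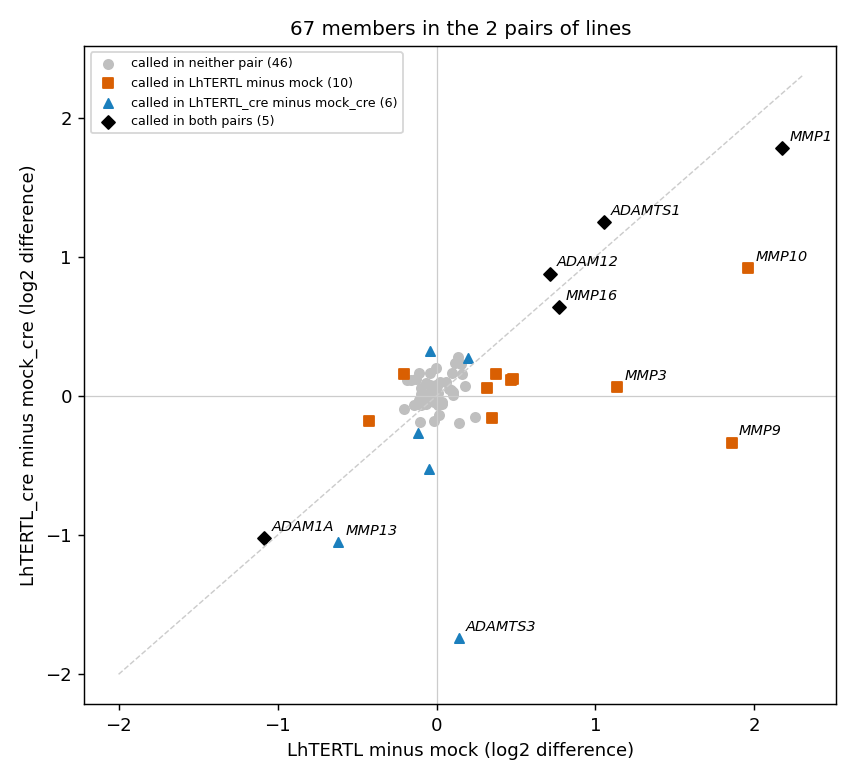
Log2 difference of each of the 67 members in LhTERTL minus mock (horizontal axis) and LhTERTL_cre minus mock_cre (vertical axis), marked by where limma called it, with the dashed line where both are equal. MMP1, ADAMTS1, ADAM12, MMP16 and ADAM1A lie near the line, while MMP9 and MMP3 lie far to the right near 0 on the vertical axis and ADAMTS3 far below.

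Between lines of like telomere length the members also differed. In LhTERTL_cre minus LhTERTL 7 members were called (10.4%, against 3.24% of all genes), of which 6 fell (background 2.32%): MMP13, MMP9, MMP3, MMP28, TIMP3 and TIMP1. The count was 3 without LhTERTL tumour 2 or LhTERTL_cre tumour 2 and 4 without LhTERTL_cre tumour 3. The riser (background 0.922%) was ADAM21, at 0.29 (limma adjusted p = 0.0448), a call that was lost in 15 of the 16 fits that each left out 1 array (0.24 to 0.32, adjusted p 0.0524 to 0.150), without LhTERTL tumour 3 being the exception. In mock_cre minus mock 9 members were called (13.4%, against 19.0% of all genes), 3 up (background 9.0%) and 6 down (background 10.1%). The 3'/5' ratio was higher in mock_cre than in mock, and with that ratio as a covariate 2 members were called in mock_cre minus mock.

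Of the 22 ADAMs, 2 differed by more than 0.5 log2 units between long and short telomeres. ADAM12, a sheddase of growth factors of the EGF family, gave -0.15, -0.23, -0.25 and -0.08 in mock and 0.62, 0.13, 0.66 and 0.74 in LhTERTL. It gave -0.38, -0.38, -0.67 and -0.40 in mock_cre and 0.60, 0.51, 0.57 and 0.02 in LhTERTL_cre. The groups of long and short telomeres did not overlap, as for MMP1 and MMP16, so 3 members (4.48%) separated in this way, against 6.20% of all genes. ADAM12 rose by 0.80 ± 0.09 (limma adjusted p = 5.73e-06), with 0.71 and 0.88 in the pairs, and each of its 5 probe sets rose, from 0.28 to 1.23. The 4 mock_cre tumours also lay below the other 12, which 9.94% of all genes showed for that line in either direction.

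ADAM1A is the pseudogene copy of a sperm protease gene. Its 1 probe set gave 0.09, -0.09, 0.52 and 0.11 in mock and -0.89, -1.33, -0.87 and -0.60 in LhTERTL. It gave 0.93, 0.40, 0.62 and 0.44 in mock_cre and -0.63, -0.998, -0.18 and 0.12 in LhTERTL_cre. LhTERTL tumours lay below every tumour with short telomeres, and LhTERTL_cre tumour 4 overlapped mock. The fall was -1.05 ± 0.14 (limma adjusted p = 2.49e-05), with -1.08 and -1.02 in the pairs. Signals of a pseudogene and of related genes may not be separated by 1 probe set, so the source of this signal is uncertain.

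ADAM17, the sheddase of TNF and of several EGF family ligands, fell slightly (-0.19 ± 0.05, limma adjusted p = 0.00683), and so did ADAM21 (-0.30 ± 0.05, adjusted p = 2.53e-04), a testis ADAM. ADAM17 was carried by LhTERTL_cre against mock_cre (-0.27, adjusted p = 0.00926), with -0.12 in the other pair (adjusted p = 0.292). Neither ADAM17 call held with the 3'/5' ratio in the model (-0.28, adjusted p = 0.104, in that pair and -0.20, adjusted p = 0.0558, in long minus short). Both were also lost within the low-spike arrays (-0.26, adjusted p = 0.103, and -0.17, adjusted p = 0.0962). Within the high-spike arrays the differences were -0.26 and -0.25. ADAM23, a non-catalytic cell adhesion ADAM, rose by 0.29 ± 0.08 (adjusted p = 0.00712), and ADAM32 by 0.19 ± 0.07 (adjusted p = 0.0411). ADAM21 and ADAM23 were called in LhTERTL against mock and not in LhTERTL_cre against mock_cre, and ADAM32 was called in neither pair. ADAM10, the main sheddase of NOTCH receptors and cadherins, was not called (-0.02, 95% interval -0.18 to 0.14). The 3 probe sets of ADAM9 were called in opposite directions, 0.45 and 0.23 against -0.29, and its mean of 0.13 was not (adjusted p = 0.130).

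In mock_cre against mock, the fallers were ADAM8 (-0.40 ± 0.08, limma adjusted p = 0.00215), ADAM19 (-0.34 ± 0.07, adjusted p = 0.0018) and ADAM15 (-0.28 ± 0.08, adjusted p = 0.0209), which all keep the zinc-binding site of active proteases, with ADAMTS6 (-0.29, adjusted p = 0.0211), ADAMTS1 and MMP13. The mock_cre values of ADAM8 were -0.38, -0.33, -0.19 and -0.31, below all 4 mock tumours (0.00, 0.10, 0.02 and 0.28). ADAM22, a non-catalytic ADAM of synapses, rose by 0.29 (adjusted p = 0.0127), but 2 of its 8 probe sets carried this (1.12 and 0.55) and the others were not called. For ADAM8, ADAM15 and ADAM19, 1 of 2 probe sets was called, and for ADAMTS6 1 of 3. With the 3'/5' ratio in the model, limma no longer called ADAM8 (-0.37, adjusted p = 0.0529), ADAM15 (-0.33, 0.0742), ADAMTS6 (-0.30, 0.132) or ADAM22 (0.22, 0.219). ADAM19 was still called. Several of these calls passed the threshold narrowly and were lost in some fits that left out 1 tumour. ADAM15 was lost without mock tumour 2 or 4 or mock_cre tumour 1 or 3 (-0.27 to -0.21, adjusted p 0.0506 to 0.0703). ADAM22 was lost without mock tumour 1 (0.24, adjusted p = 0.0554). ADAMTS6 was lost without mock tumour 1 or mock_cre tumour 3 (-0.22 and -0.24, adjusted p 0.0896 and 0.0768). ADAM19 also fell in LhTERTL against mock (-0.20, adjusted p = 0.0436), a call lost without any 1 of those 8 tumours or LhTERTL_cre tumour 3 (adjusted p 0.0533 to 0.117). The difference between the pairs for ADAM19, 0.36 (adjusted p = 0.0238), was lost without mock tumour 4 or mock_cre tumour 3 (0.34 and 0.33, adjusted p 0.0546 and 0.0513).

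ADAMTS1, an aggrecanase and versicanase, gave 0.01, -0.21, -0.56 and -0.03 in mock and 1.03, 0.63, 0.59 and 1.18 in LhTERTL. It gave -0.55, -0.96, -0.68 and -1.14 in mock_cre and 0.31, 1.01, 0.54 and -0.20 in LhTERTL_cre. Tumours with long telomeres were higher apart from LhTERTL_cre tumour 4, which lay among the mock tumours. ADAMTS1 rose by 1.15 ± 0.15 (limma adjusted p = 1.28e-05), with 1.05 in LhTERTL against mock and 1.25 in LhTERTL_cre against mock_cre. With the 3'/5' ratio in the model, the second was not called (0.61, adjusted p = 0.120), while the average over both was (0.77). ADAMTS1 was also lower in mock_cre than in mock (-0.64, adjusted p = 0.0409), a call lost with that covariate (-0.13, adjusted p = 0.808) and without any 1 of mock tumours 1, 2 and 4 and mock_cre tumours 2, 3 and 4 (-0.69 to -0.53, adjusted p 0.0561 to 0.127).

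ADAMTS3, which trims procollagens and activates the lymphatic growth factor VEGFC, gave -0.26, -0.44, 0.69 and -0.37 in mock and 0.08, 0.33, -0.08 and -0.16 in LhTERTL. It gave 1.20, 0.64, 1.19 and 1.40 in mock_cre and -0.69, -1.55, -0.65 and 0.36 in LhTERTL_cre. The mock_cre tumours were high, LhTERTL_cre mostly low, and mock and LhTERTL overlapped. It was 3.34-fold lower in LhTERTL_cre than in mock_cre (-1.74 ± 0.31, limma adjusted p = 3.54e-04), 0.14 in LhTERTL against mock (adjusted p = 0.825) and 1.20 higher in mock_cre than in mock (adjusted p = 0.00952). The difference between the pairs was -1.88 ± 0.43 (adjusted p = 0.0093). None of these calls held with the 3'/5' ratio in the model (adjusted p 0.0844, 0.279 and 0.112, with values of -1.18, 0.75 and -1.43), and the average over the pairs of -0.80 became -0.20 without the mock_cre arrays (adjusted p = 0.708).

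ADAMTS15, another versicanase, fell in LhTERTL_cre against mock_cre (-0.52, limma adjusted p = 0.00416), and its long minus short difference of -0.28 (adjusted p = 0.0195) was -0.09 without the mock_cre arrays (adjusted p = 0.633). In each of these comparisons, and in mock_cre against mock, 1 of its 2 probe sets was called. Its rise in mock_cre against mock (0.39, adjusted p = 0.0371) was lost without any 1 of mock tumours 1, 2 and 4 and mock_cre tumours 1, 3 and 4 (0.31 to 0.41, adjusted p 0.0551 to 0.126). ADAMTS14, a procollagen N-proteinase, rose in LhTERTL_cre against mock_cre (0.32, adjusted p = 0.0418), a call lost in 10 of 16 fits that each left out 1 array (0.22 to 0.33, adjusted p 0.0502 to 0.155), among them each that left out 1 LhTERTL_cre tumour. The aggrecanases ADAMTS4 (-0.06, 95% interval -0.18 to 0.06) and ADAMTS5 (-0.03, 95% interval -0.13 to 0.08) were not called. Of the 9 ADAMTS genes outside the proteoglycanases and procollagen proteinases, limma called 0 in long minus short (background 32.6%), and 1 had an unadjusted p under 0.05.

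Of the inhibitors, 3 of 4 TIMPs had their LhTERTL tumours above all the other 12 tumours. LhTERTL stood apart in either direction for 2.93% of all genes. The mock tumours stood apart for 3.05% of all genes and for 0 members. TIMP1, a broad inhibitor, gave 0.21, 0.28, 0.17 and 0.19 in LhTERTL, and the others ran from -0.37 to 0.14. TIMP2, which also takes part in activating the MMP2 precursor, gave 0.21, 0.13, 0.15 and 0.25, and TIMP3, which stays bound to the matrix and also blocks ADAM17 and several ADAMTS enzymes, gave 0.23, 0.70, 0.19 and 0.20. In LhTERTL minus mock the median absolute difference was 0.30 log2 units over the 4 TIMPs, against 0.11 over the MMPs, 0.13 over the ADAMs, 0.04 over the ADAMTS genes and 0.11 over all genes, and each TIMP differed by less than MMP1, MMP10, MMP9 and MMP3. In LhTERTL against mock, TIMP2 rose by 0.38 ± 0.07 (limma adjusted p = 0.00123), TIMP3 by 0.35 ± 0.10 (adjusted p = 0.0229), and TIMP1 differed by 0.24 (adjusted p = 0.0794). Each of the 3 probe sets of TIMP2 was called, and 2 of 4 for TIMP3.

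In LhTERTL_cre the values of TIMP1 were -0.07, -0.37, -0.08 and -0.24 and those of TIMP3 -0.30, -0.10, -0.20 and -0.17. Against LhTERTL these were falls of -0.40 ± 0.09 (limma adjusted p = 0.0259) and -0.52 ± 0.10 (adjusted p = 0.0104). TIMP2 was at 0.10, 0.05, 0.09 and -0.01 in LhTERTL_cre and differed from LhTERTL by -0.13 (adjusted p = 0.436). Over both pairs TIMP2 rose (0.27 ± 0.05, adjusted p = 5.55e-04), and TIMP1 (0.05, 95% interval -0.09 to 0.19), TIMP3 (0.10, 95% interval -0.06 to 0.25) and TIMP4 (0.03, 95% interval -0.12 to 0.17) were not called. TIMP4, the fourth inhibitor, was called in no comparison, and its highest value was mock tumour 2 at 0.51.

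The TIMP1 fall was lost without LhTERTL tumour 1 or 2 or LhTERTL_cre tumour 2 (-0.40 to -0.34, adjusted p 0.0678 to 0.107). The TIMP3 fall was lost with only the arrays of LhTERTL and LhTERTL_cre fitted (-0.52, limma adjusted p = 0.0565). The TIMP3 rise was lost without mock tumour 3 (0.29, adjusted p = 0.0720) or LhTERTL tumour 2 (0.23, adjusted p = 0.0718), and within the low-spike arrays (0.34, adjusted p = 0.0749). The difference between the pairs for TIMP3, -0.51 (adjusted p = 0.0346), was lost in 7 of 16 fits that each left out 1 array, namely mock tumours 1, 3 and 4, mock_cre tumours 2 and 3 and LhTERTL_cre tumours 1 and 3 (-0.52 to -0.45, adjusted p 0.0532 to 0.0680).

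**Figure D4:**
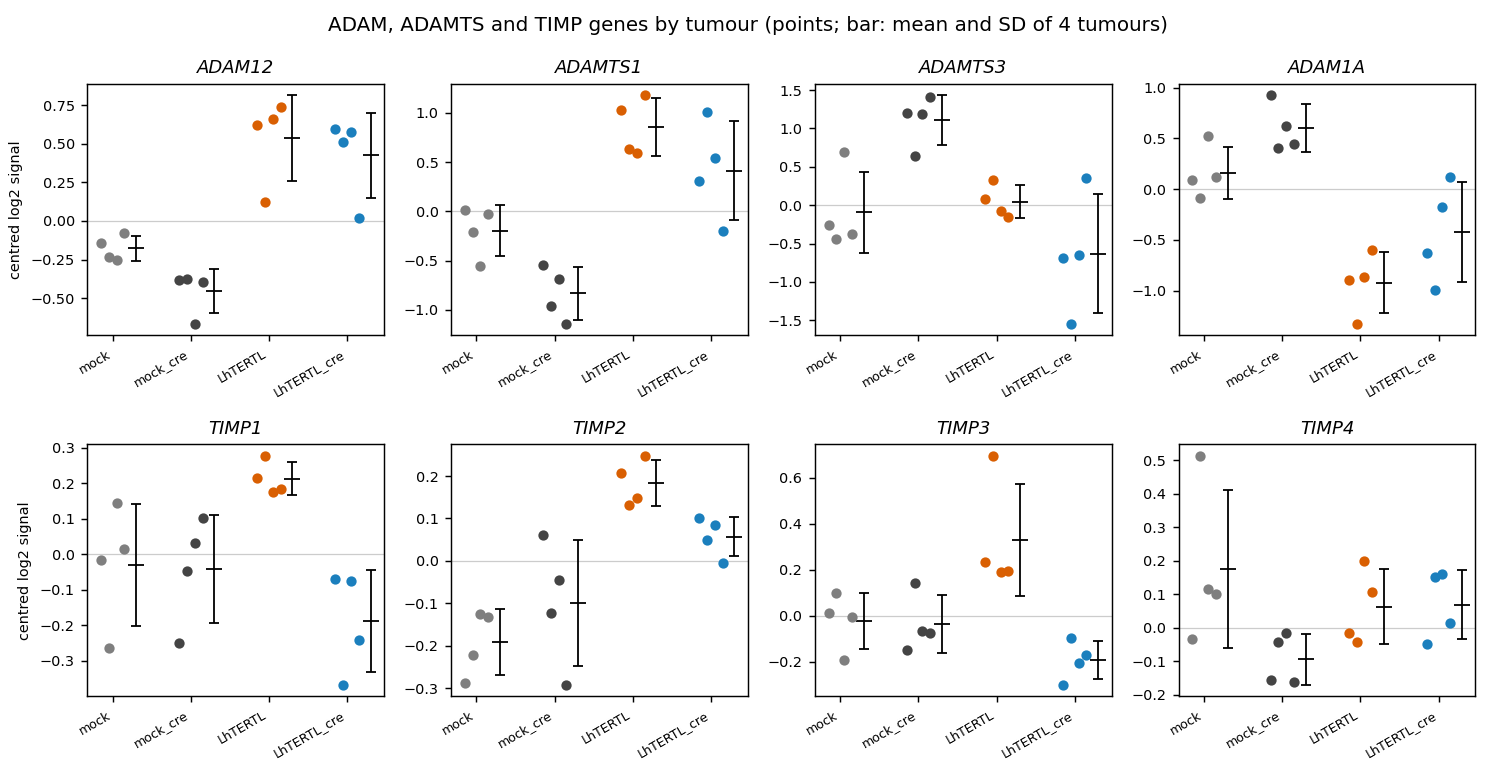
Centred log2 signal of ADAM12, ADAMTS1, ADAMTS3, ADAM1A and the 4 TIMPs in each tumour, by line (points), with the mean and SD of the 4 tumours (bar); each panel has its own scale. ADAM12 is higher in all 8 tumours with long telomeres, ADAMTS3 is highest in mock_cre, and TIMP1, TIMP2 and TIMP3 are highest in LhTERTL.

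The remaining 39 of the 67 members were called in none of the 6 comparisons, and their differences ran from -0.29 to 0.28 log2 units.

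Among genes that act with the family, the transcription factors known from MMP promoters moved in both directions: of 16, 4 rose and 5 fell with long telomeres (median -0.06, against 0.02 over all genes). Over all genes, 18.5% rose and 14.1% fell in that comparison, which is the background for the lists that follow. JUNB, an AP-1 subunit that can restrain JUN, fell by -0.80 ± 0.10 (limma adjusted p = 8.87e-06), and CEBPB, a factor of inflammatory genes, fell by -0.76 ± 0.10 (adjusted p = 1.72e-05). Both also fell in each pair. SP1 (-0.33) and FOSL2 (-0.26) were lower too. FOSL1 and ETS1, an AP-1 subunit and an ETS factor, were higher (0.55 and 0.50), and both were called in LhTERTL_cre against mock_cre (1.02 for each), not in LhTERTL against mock (0.08 and -0.01), and lower in mock_cre than in mock. These last 2 were named after their values were seen.

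Of 16 matrix substrates, 4 rose with long telomeres and 0 fell (median 0.01). SPP1, osteopontin, gave 2.29, 1.04, 0.95 and 1.19 in LhTERTL and stayed between -0.13 and 0.12 in all other tumours. It rose by 1.37 in LhTERTL against mock (limma adjusted p = 1.09e-04) and fell by 1.41 in LhTERTL_cre against LhTERTL (adjusted p = 6.02e-04), with -0.01 in LhTERTL_cre against mock_cre (adjusted p = 0.989). VCAN, versican, a substrate of ADAMTS1, gave 0.53, 0.47, 0.53 and 0.31 in LhTERTL and was 1.04 higher there than in mock (adjusted p = 8.70e-05). In LhTERTL_cre against mock_cre it was -0.36 (adjusted p = 0.0726), and the difference between the pairs was called (-1.40, adjusted p = 4.40e-04), so its average of 0.34 (adjusted p = 0.0167) joins pairs of opposite sign. FN1, fibronectin, rose by 0.64 (adjusted p = 6.98e-04), and BCAN, brevican, by 0.16 (adjusted p = 0.0110).

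Of 20 activators, inhibitors and partners, 2 rose and 3 fell (median 0.02). BSG, the cell surface MMP inducer basigin, rose by 0.48 ± 0.08 (limma adjusted p = 1.79e-04), with 0.74 in LhTERTL against mock (adjusted p = 2.32e-04) and 0.23 in the other pair (adjusted p = 0.164). TSPAN10, a tetraspanin that carries ADAM10, rose by 0.34, while TSPAN33 (-0.27) and TSPAN17 (-0.14), which also carry ADAM10, fell. Of 20 shed ligands and receptors, 5 rose and 4 fell (median 0.00), among them AREG (0.42) and MICA (0.32) upward and CXCL16 (-0.58) and APP (-0.30) downward. Of 7 ADAMTS-like proteins, which lack a protease domain, 0 were called in long minus short and their median was 0.02.

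In LhTERTL against mock, 2 fibroblast and 5 prostate epithelial markers rose with 0 falling, while macrophage, neutrophil and endothelial markers gave at most 1 rise and 1 fall each. The part of these cells in the results was not tested. Of 10 fibroblast markers 2 rose and 0 fell with long telomeres (background 18.5% and 14.1%), and 2 rose and 0 fell in LhTERTL against mock (background 12.3% and 7.99%), where COL1A1 and COL3A1 rose (0.56 and 0.52). The mean of the fibroblast list ran from 0.07 to 0.23 in LhTERTL and from -0.09 to 0.09 in the other 3 lines. LhTERTL also had the highest mean of the prostate epithelial list (0.12). The same line had the highest mean of MMP1, MMP3, MMP9, MMP10, MMP16, MMP28, ADAM12, ADAMTS1, SPP1, TIMP1, TIMP2 and TIMP3, among others. Of 10 macrophage markers 1 rose and 1 fell with long telomeres, and the list mean ran from -0.11 to 0.09 in LhTERTL and from -0.13 to 0.09 elsewhere. Of 8 neutrophil markers, cells known to store MMP8 and MMP9, 0 rose and 2 fell with long telomeres, and the list mean was 0.01 to 0.19 in LhTERTL, -0.07 to 0.23 in mock, 0.07 to 0.22 in mock_cre and -0.16 to 0.01 in LhTERTL_cre. Of 8 endothelial markers 1 rose and 1 fell with long telomeres, with a list mean from -0.18 to 0.03 in LhTERTL and from -0.16 to 0.07 elsewhere. Of 10 prostate epithelial markers 5 rose and 0 fell in LhTERTL against mock (median 0.25, against 0.01 over all genes), among them EPCAM (1.18) and CDH1 (0.91), while 1 rose and 3 fell in LhTERTL_cre against mock_cre (background 15.0% and 13.0%), where EPCAM (-1.34) and CDH1 (-0.75) were among those that fell. The mean of the epithelial list ran from -0.01 to 0.19 in LhTERTL, from -0.39 to -0.01 in mock, from 0.03 to 0.14 in mock_cre and from -0.32 to 0.06 in LhTERTL_cre.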

How the data were processed

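RNA of 16 xenograft tumours, 4 per line, was measured on 1 array each. The deposited values are log2 signals from RMA, per the submitters' processing notes; each probe set is centred on its median over the 16 arrays, as the values show, so no level remains. The software, platform and annotation version are not given in the sources used here. Both deposited tables held identical values.

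Of 54675 probe sets, 62 were controls, 961 named several genes and 12176 none, and the 41476 naming 1 gene were averaged per gene. Because their symbols clashed, 6 gene identifiers were left out, which left 20276 genes. Symbols were updated from a RefSeq gene table, in which all 67 members were found. Groups were taken from the labels. Lines were compared by limma (version 3.58.1, under R 4.3.3) with a mean per line over all 16 arrays and a two-sided moderated test with Benjamini-Hochberg adjustment over all genes at 0.05. The procedure was tested on simulated data.

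The members, gene lists and markers were chosen with earlier results of these data known. Named genes were the TIMPs, up to 8 called members with the largest rise and fall per comparison, members of 1 line apart by 1 log2 unit, members whose probe sets were called in opposite directions, and up to 4 genes per further list. After their values were seen, further genes were named, among them MMP members outside the rule, matrix genes and markers. Alternatives were other gene values, normalizations, variance models, array weights, blocks, covariates and array subsets; the subsets by poly-A spike signal were added after seeing the data. Arrays have no read depth, and 4 per line limit the precision. Python 3.11.15 (pandas 2.3.3, numpy 2.4.6, matplotlib 3.10.9) served for tables and plots.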

Additional observations from a re-analysis of the deposited data

Results flagged for a closer look

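Single tumours stood far from the other 3 of their line in 8 of 108 sets of 4 values checked for the named members, and chance alone marks about 1 in 20 such sets. ADAM12 was low in mock_cre tumour 3 (-0.67) and in LhTERTL_cre tumour 4 (0.016). That LhTERTL_cre tumour was also high for ADAM19 (0.15). ADAM8 (0.28) and TIMP3 (0.70) were high in LhTERTL tumour 2. ADAMTS3 (0.69) and MMP9 (0.28) were high in mock tumour 3. MMP13 was low in LhTERTL_cre tumour 2 (-2.54).

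The difference between LhTERTL_cre minus mock_cre and LhTERTL minus mock was called by limma for 4 members. It was -2.19 log2 units for MMP9 (adjusted p = 0.00699), -1.88 for ADAMTS3 (adjusted p = 0.0093), -0.51 for TIMP3 (adjusted p = 0.0346) and 0.36 for ADAM19 (adjusted p = 0.0238). None of the 4 passed with the 3'/5' ratio in the model. The differences there were -1.92 for MMP9, -1.43 for ADAMTS3, -0.60 for TIMP3 and 0.40 for ADAM19.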

How the results depend on the processing

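Over 60 named results and 1788 alternatives, 1589 kept direction and call, 199 kept direction but missed the threshold and 0 reversed. Called under every alternative run were 13 results. All 60 were chosen as called in the main fit. Some alternatives, such as leaving out an array of a line not compared, cannot change the size of a difference, so its direction was fixed there. The totals include fits of the high-spike arrays. For long minus short telomeres, the count of members called (20) was 0 with line means as the unit. For LhTERTL minus mock (15) it was 10 with plain probe sets only and 20 with array weights. For LhTERTL_cre minus mock_cre (11) it was 6 with the 3'/5' ratio in the model and 6 within the low-spike arrays. For mock_cre minus mock (9) it was 2 with that ratio, 5 among genes with the larger SD and 1 within the high-spike arrays. For LhTERTL_cre minus LhTERTL (7) it was 4 with plain probe sets only, 2 with only the arrays compared and 4 within the low-spike arrays. For the difference between the pairs (4) it was 7 with the probe set of largest SD, 7 with array weights and 0 with the ratio (limma, 9 members at an unadjusted p under 0.05). Leaving out each array gave 18 to 21, 13 to 16, 9 to 12, 6 to 9, 3 to 9 and 2 to 7 in the same order. The causes were not tested. Restricting the fit leaves fewer arrays. The high-spike arrays hold 1 tumour each of mock, LhTERTL and LhTERTL_cre, so no counts are given for them.

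Replicate numbers were shared by the lines, but the deviations of same-numbered arrays correlated from -0.325 to 0.369 over 24 pairs, 9 of them over 0.1, and for 5 of 16 arrays the best match had their own number. With the replicate number as a block, the counts were 21, 15, 11, 9, 7 and 4. The other deposited table gave identical values.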
